A study of Rattus norvegicus with 72 samples.

Results

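The genes described here are the GABA receptor subunits of a 145-gene qRT-PCR panel, chosen as every panel identifier that begins with Gabr or Gabbr. The rule found 9 of the 145 genes, and all 9 begin with Gabr. The 8 described here are the alpha subunits Gabra3 and Gabra5, the beta subunit Gabrb1, the gamma subunits Gabrg1 and Gabrg3, the delta subunit Gabrd, the theta subunit Gabrq and the rho subunit Gabrr2. All 8 encode subunits of ionotropic receptors. No measured identifier begins with Gabbr, so metabotropic subunits were not analysed here and the ionotropic subunits could not be set against them.

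GABA is the main inhibitory transmitter of the adult brain. Ionotropic GABA receptors are pentameric chloride channels, usually built from alpha and beta subunits with a gamma or a delta subunit, and the subunit makeup sets where the channel sits, how strongly it binds GABA and which drugs it responds to. Metabotropic GABA receptors are G protein-coupled dimers of the Gabbr subunits. In the dorsal vagal complex (DVC), the brainstem region that receives vagal afferents, and in the central nucleus of the amygdala (CeA), a forebrain output nucleus made largely of GABAergic neurons, ionotropic GABA receptors carry most fast inhibition.

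The study asked how transcript levels in these regions differ between times of day in the light phase. Total RNA came from bilateral punches of the DVC and the CeA of young male Sprague Dawley rats, killed at Zeitgeber time (ZT, hours after lights on) 3, 5 or 9. All animals were untreated and alcohol-naïve, and all had received an alcohol-free liquid diet restricted in calories to the intake of matched alcohol-fed rats, so no freely fed rats stand beside them. There were 39 samples of the DVC (ZT3, n = 7; ZT5, n = 17; ZT9, n = 15) and 33 of the CeA (n = 7, 14 and 12). Each sample was 1 animal, and 32 of the 40 animals gave both regions. Values are C_T, the cycle at which a reaction crosses its threshold, after the authors' quantile normalization. A lower C_T is a higher level, 1 cycle is about 2-fold, and each difference below is signed so that a positive value means a higher level in the group named first. C_T levels of different assays cannot be ranked against each other, so levels are compared only within a gene.

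Facts of the whole panel touch several results below. The median C_T of CeA samples before normalization lay 1.06 cycles above that of DVC samples on average, whereas normalized samples all share one distribution. Quantile normalization gives the highest C_T of every sample the same value, 27.12 cycles, which is therefore a ceiling. Failed reactions numbered from 0 to 6 per DVC sample, while 2 of the 33 CeA samples, ZT5 replicate 1 and ZT9 replicate 10, had 78 and 74 failures of 145. These 2 samples still gave 6 and 7 of the 8 subunits. The animals were split here into a lower- and a higher-numbered group, which the labels do not name. The cut was set from the time labels, and the higher-numbered group starts at the animal number just before the lowest of ZT3. By construction all ZT3 animals are therefore higher-numbered, and the lower-numbered ones hold only ZT5 and ZT9. Values within these animal groups are given beside the results they move most. The marker of noradrenergic neurons Slc6a2, which the DVC is known to contain, was measured in 38 of 39 DVC samples and in 1 of 33 CeA samples. The astrocyte gene Clu was 0.59 ± 0.15 cycles (SE) lower in the DVC by limma (adjusted p = 5.07e-04). At the single times its difference was −1.20 at ZT5, where limma called it, and −0.10 and −0.14 at ZT3 and ZT9. Clu also differed between times in the DVC (limma adjusted p = 0.00652), where it was 0.96 higher at ZT3 and 0.78 higher at ZT9 than at ZT5. Quantile normalization sets each value by its rank in the sample, and at ZT3 the SD of Clu there was 0.014 cycles, against 0.65 as measured. As measured, its mean C_T in the DVC was 11.71 at ZT3, 12.12 at ZT5 and 11.63 at ZT9. The mean of the sample medians moved alike, at 18.70, 19.30 and 18.84, so the normalized change of Clu is not read as a change of astrocytes. The microglial gene Ptgs1 was 0.45 ± 0.13 lower in the DVC (adjusted p = 0.00201). With C_T as measured, both were higher in the DVC on average, Clu by 1.06 cycles in 29 of 32 animals and Ptgs1 by 0.43 in 21 of 32. Their part in the subunit results was not tested. In punches of mixed cells, fewer cells of a type and less RNA per cell cannot be told apart.

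The regional results turn on 3 assays, and their primer pairs are shown because each value is the amount of the product between them. The sequences are those listed by the study, 5′ to 3′.
Gabra3 forward: ggtcatgttgttgggacaga
Gabra3 reverse: tcagatgaaagtgggttgtca
Gabrd forward: ggacgagcaggagtgcat
Gabrd reverse: gctcctggttttctgaccaa
Gabrq forward: catatgatgtccgactgagacc
Gabrq reverse: gatagatattgacacaggcacagg
The primers are between 18 and 24 bases long. All 8 subunits matched an NCBI gene number in the RefSeq gene table of GRCr8, the rat assembly used here for names and gene order only. In that order Gabra5 and Gabrg3 have 0 protein-coding genes between them, Gabra3 and Gabrq have 1, and Gabrb1 and Gabrg1 have 3.

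The subunits separated the regions in both directions. With time point as a covariate, limma called 5 of the 8 subunits different between the regions at an adjusted p of at most 0.05, against 72.2% of the 144 genes tested. Gabra3 and Gabrq were higher in the DVC, a direction that 43.1% of all genes took, and Gabrd, Gabrb1 and Gabrg1 were higher in the CeA, as were 29.2% of all genes. The median size of the difference was 0.47 cycles over the 8 subunits and 0.59 over all genes tested, so the median subunit did not stand out from the panel. Gabrd and Gabrq nevertheless had ranks 2 and 4 in size among the 144 genes.

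Gabrd encodes the delta subunit, which is known from extrasynaptic receptors that carry tonic inhibition. In the CeA its normalized C_T ran from 20.30 to 23.41 with a median of 21.71 over 33 samples. In the DVC it ran from 20.44 to 27.12 with a median of 25.63 over the 36 samples that gave a value, and 5 of these sat at the ceiling. The ranges overlapped through 1 DVC sample, ZT9 replicate 12, and the next lowest DVC value was 23.55. Gabrd was 3.75 ± 0.24 cycles (SE) lower in the DVC (adjusted p = 8.17e-24), which is 13.4-fold with a 95% interval from 9.70 to 18.6. It was higher in the CeA in 28 of the 29 animals with both values. Without that sample the difference was −3.89. The values at the ceiling and the 3 failed DVC reactions bound the DVC level from one side only.

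Gabrq, the theta subunit, is known mainly from brainstem and hypothalamic neurons that release monoamines. It was measured in all 39 DVC samples, from 20.11 to 23.99 with a median of 22.06. In the CeA 26 of 33 reactions gave a value, from 23.33 to 27.12 with a median of 24.98, and 3 of these sat at the ceiling. The regions overlapped by 1 sample on each side. Gabrq was 3.20 ± 0.19 cycles higher in the DVC (adjusted p = 5.41e-24), or 9.22-fold with an interval from 7.06 to 12.04, and was higher in the DVC in 25 of 25 animals. Setting the failed CeA reactions to the highest C_T of the gene raised the difference to 3.64. Of the 7 CeA failures 0 fell at ZT3, 3 at ZT5 and 4 at ZT9.

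Gabra3, an alpha subunit known from monoaminergic and other brainstem nuclei, spanned 19.01 to 21.07 in the DVC with a median of 20.14 and 20.07 to 22.82 in the CeA with a median of 20.79. These ranges overlapped widely, and 23 of the 33 CeA samples lay within the DVC range. Gabra3 was 0.69 ± 0.10 cycles higher in the DVC (adjusted p = 1.63e-08), or 1.61-fold, in 31 of 32 animals. Gabra5, the other alpha subunit described and a component of extrasynaptic receptors in the hippocampus, had a median of 17.04 in DVC samples and 17.06 in CeA samples. Its difference was 0.06 with a 95% interval from −0.09 to 0.22 cycles, so differences beyond 0.22 cycles in size lay outside it. With each region normalized on its own it was 1.27 cycles higher in the DVC, past the threshold, but the median of all genes was 1.18 higher there too. With median centring Gabra5 was 0.24 higher in the DVC (limma adjusted p = 0.0178), where the median of all genes was 0.13.

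**Figure D1:**
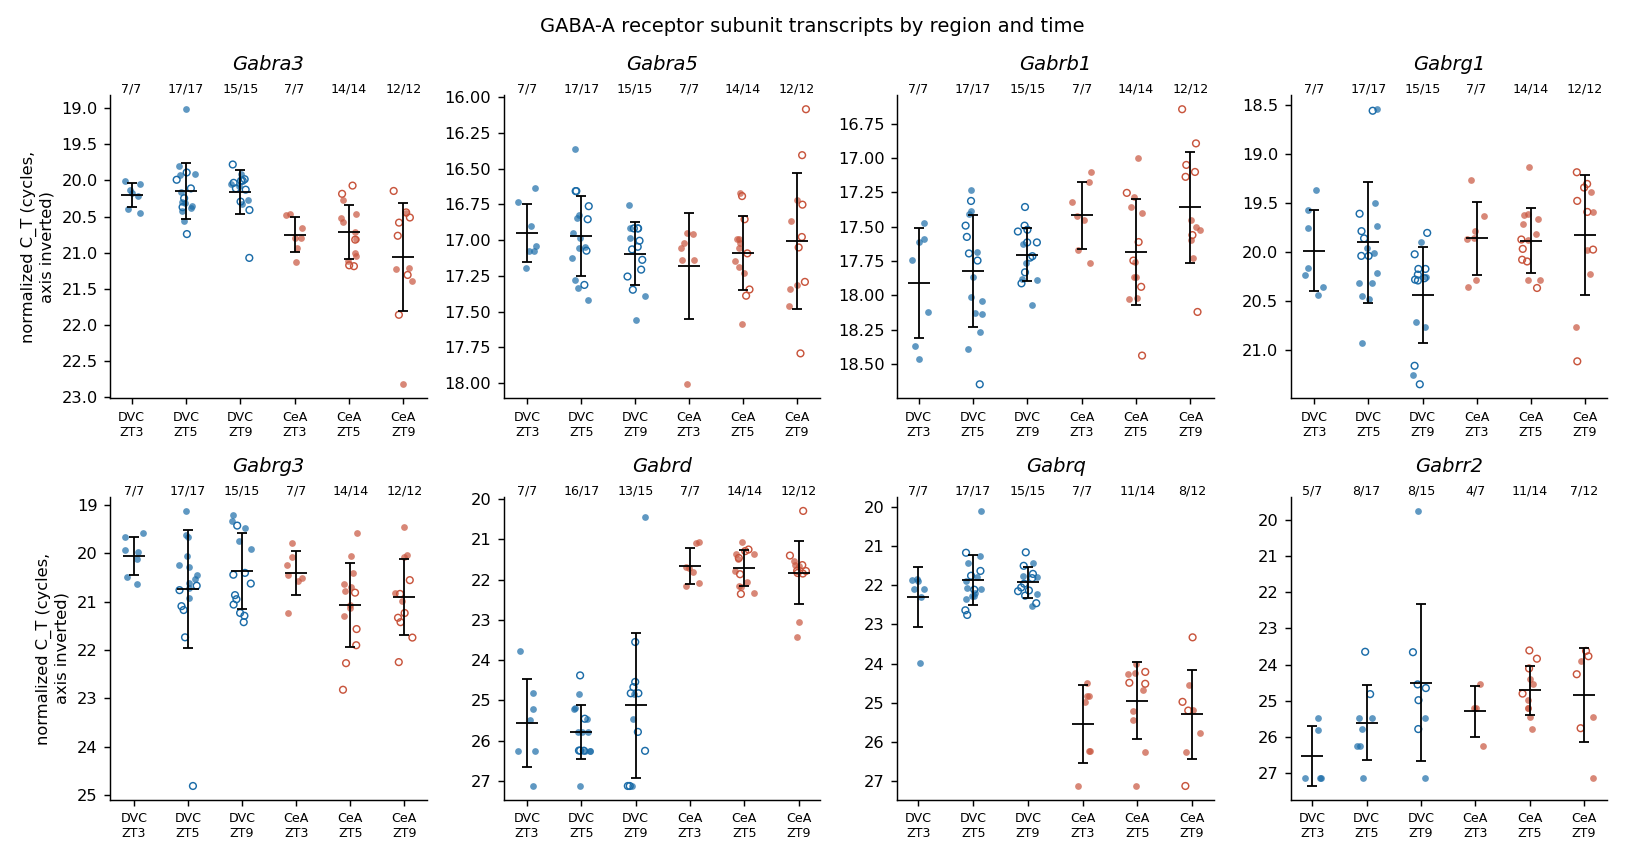
Normalized C_T of the 8 subunits in each sample, by region and time point, on an inverted axis so that up is a higher level. Filled points are higher-numbered and open points lower-numbered animals, black lines are the mean ± SD, and the fractions give measured of all samples. Gabrq lies higher in the DVC and Gabrd in the CeA at all 3 times, and DVC ZT9 replicate 12 is the single high point for Gabrd and Gabrr2.

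The smaller differences depended on the scaling. Gabrb1, a beta subunit that forms the GABA site together with an alpha subunit, ran from 17.23 to 18.65 in the DVC (median 17.73) and from 16.65 to 18.44 in the CeA (median 17.50). It was 0.29 ± 0.09 cycles lower in the DVC (adjusted p = 0.00261), and higher in the CeA in 26 of 32 animals. In lower-numbered animals alone it was −0.23 (adjusted p = 0.207). Gabrg1, a gamma subunit known for its level in the amygdala, had a median of 20.17 in DVC samples and 19.86 in CeA samples, and was 0.26 ± 0.12 cycles lower in the DVC (adjusted p = 0.0497) and higher in the CeA in 22 of 32 animals. With the animal as a block in animals with both regions it was −0.22 (limma adjusted p = 0.0771). Gabrb1 and Gabrg1 both turned to higher in the DVC with C_T as measured, by 0.85 and 0.80 cycles. There the median of all genes was 1.13 cycles higher in the DVC, against 0.11 in normalized values. Relative to the median of all genes, Gabrb1 lay at −0.40 in normalized values and at −0.28 as measured, and Gabrg1 at −0.37 and −0.32. Gabrg1 also missed the threshold under leave-one-out in all but 26 of the 72 fits. Gabrg3, a less abundant gamma subunit in most of the brain, was 0.41 ± 0.20 cycles higher in the DVC (adjusted p = 0.0565), and 0.43 higher with the same block (limma adjusted p = 0.0270). With the animal group as a covariate it was 0.45 (limma adjusted p = 0.00698). Higher-numbered animals alone gave 0.47 (limma adjusted p = 0.00464) and lower-numbered ones 0.41 (limma adjusted p = 0.270). Its DVC values included 24.81 in ZT5 replicate 3, more than 3 cycles above that region's next highest value of 21.74, and without this sample the difference was 0.52 (adjusted p = 0.00363). Gabrr2, a rho subunit best known from the retina, was measured in 21 of 39 DVC and 22 of 33 CeA samples. Its difference was −0.52 ± 0.37 (adjusted p = 0.200), and −0.77 without DVC ZT9 replicate 12 (adjusted p = 0.0140).

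**Figure D2:**
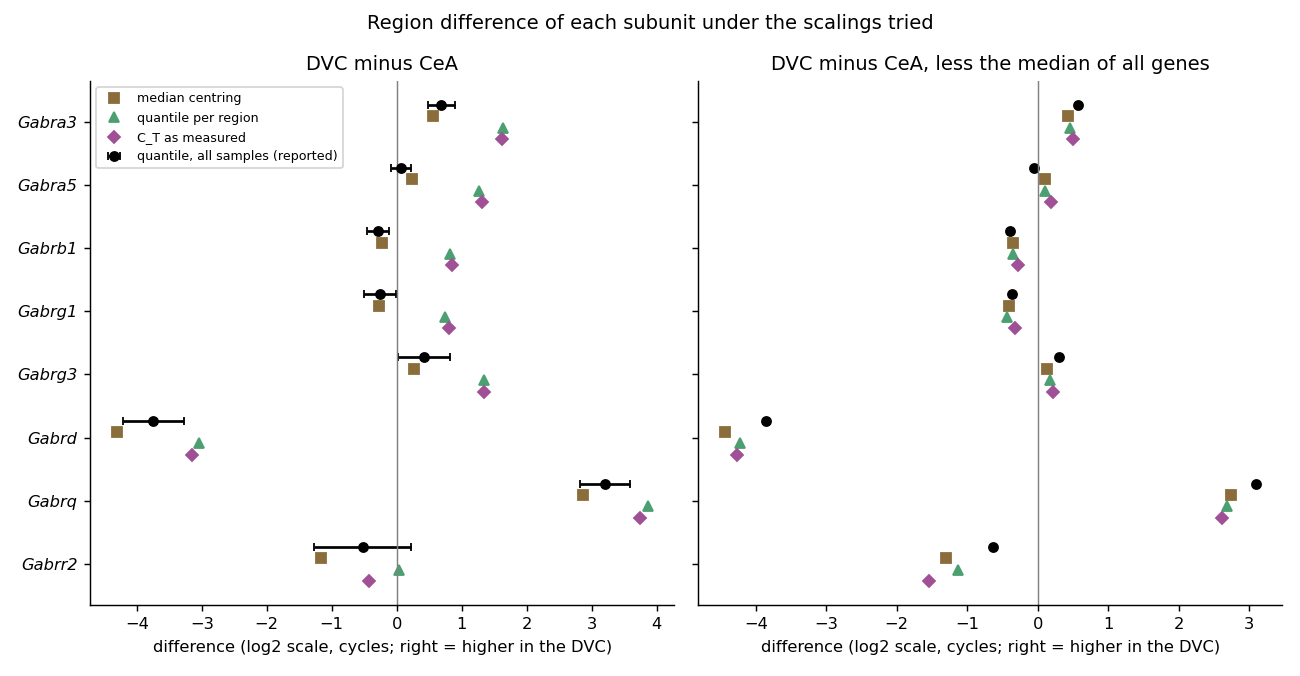
Difference between the regions of each subunit in cycles (log2 scale, right is higher in the DVC), for the reported normalization with its 95% interval and for 3 other scalings. The left panel shows the differences and the right panel the same less the median of all genes. On the left Gabrb1, Gabrg1 and Gabrr2 change side with the scaling, while on the right they stay below 0 and Gabra3 and Gabrq stay above 0 in each of the 4 scalings.

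At the single time points, limma called 4 of 8 subunits at ZT3, 3 at ZT5 and 5 at ZT9, where 45.8%, 59.2% and 58.5% of all genes tested were called. Gabra3, Gabrq and Gabrd were called at all 3 times, Gabrb1 at ZT3 and ZT9, and Gabrg1 at ZT9. The excess of Gabra3 in the DVC was 0.55 ± 0.23 cycles at ZT3, 0.57 ± 0.16 at ZT5 and 0.90 ± 0.17 at ZT9. That of Gabrq was 3.23 ± 0.41, 3.07 ± 0.30 and 3.36 ± 0.33. Gabrd was lower in the DVC by 3.90 ± 0.52, 4.06 ± 0.36 and 3.29 ± 0.39 cycles. Whether these regional differences changed with time was tested by the interaction of region and time. Limma called 0 of 8 subunits and 0% of all genes tested, the unmoderated analysis of variance also called 0 subunits, and at an unadjusted p of at most 0.05 limma passed 0 subunits, against 10.6% of all genes.

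The genes that make and move GABA were compared in the same fit. Of the 3 genes Gad1, Slc32a1 and Slc6a12, limma called 2. Slc6a12, a betaine and GABA transporter, was 1.74 ± 0.38 cycles higher in the DVC (adjusted p = 6.33e-05), but it gave a value in 13 of 33 CeA samples. Slc32a1, the vesicular GABA transporter, was 0.27 ± 0.12 lower in the DVC (adjusted p = 0.0430). The GABA-synthesizing enzyme Gad1 differed by −0.19 with an interval from −0.41 to 0.03 cycles. The subunits of the 3 assays shown above, picked for their regional difference, differed by more than Gad1 and Slc32a1 did in the same samples. Slc6a12 differed by more than Gabra3 and by less than Gabrd and Gabrq. These values are a description, with no test between genes.

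Within a sample the ratio of 2 subunits needs no normalization, because the amount of cDNA cancels. Ratios of measured C_T were compared between the regions of the same animal with a sign-flip permutation test of 100000 draws. Of 4 ratios formed 2 are described, with p-values adjusted over the 4. A ratio here is a difference of C_T and its zero has no meaning, since assays differ in efficiency. The Gabra3 to Gabra5 ratio was 0.31 ± 0.60 cycles (SD, n = 32) higher in the DVC in 22 of 32 animals (permutation test, adjusted p = 0.00796), and 0.63 higher in 24 of 32 animals with normalized values. The Gabrg1 to Gabrg3 ratio was 0.53 ± 1.36 lower in the DVC, and was higher there in 7 of 32 animals (permutation test, adjusted p = 0.0265). In the 12 lower-numbered animals alone both ratios missed the threshold, at 0.23 (permutation test, adjusted p = 0.340) and −0.34 (permutation test, adjusted p = 0.615). There the second ratio had an SD of 2.12 and ran from −3.24 to 5.43. In the 20 higher-numbered animals both passed, at 0.36 (permutation test, adjusted p = 0.00788) and −0.64 ± 0.63 (permutation test, adjusted p = 4.0e-05).

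**Figure D3:**
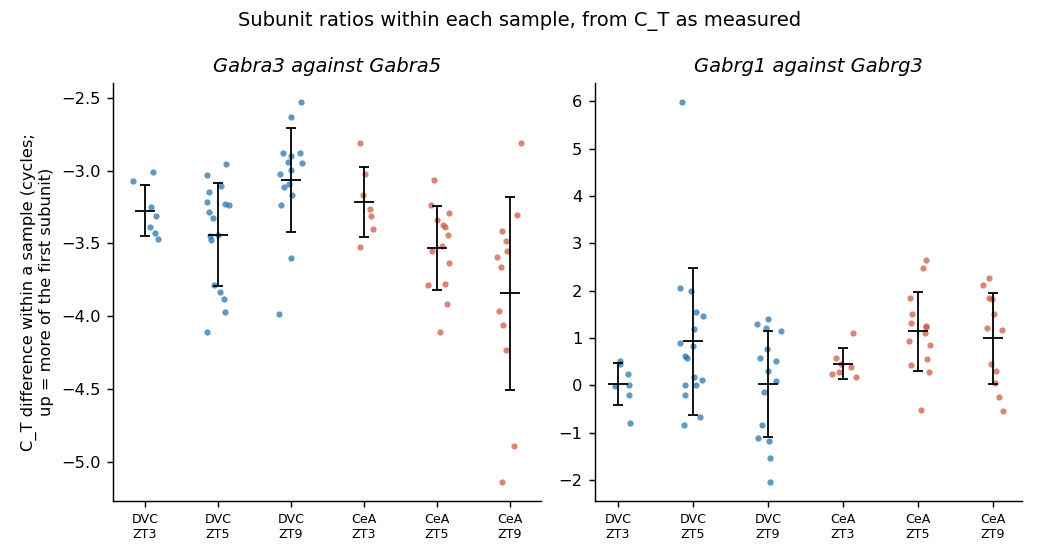
Ratios of subunits within each sample, as differences of C_T as measured (cycles, up is more of the first subunit), by region and time point. Points are samples and black lines the mean ± SD. The groups overlap in both panels, and the mean Gabra3 to Gabra5 ratio is highest in the DVC at ZT9 and lowest in the CeA at ZT9.

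No subunit changed with time of day past the threshold. In the DVC limma called 0 of 8 subunits among ZT3, ZT5 and ZT9, against 10.3% of the 145 genes, and in the CeA 0 of 8 against 3.52% of all genes tested. At an unadjusted p of at most 0.05 it passed 1 of 8 subunits in the DVC, Gabrg1, and 0 of 8 in the CeA, against 21.4% and 14.8% of all genes. The unmoderated analysis of variance called 0 in both. In the pairwise contrasts limma called 0 of 8 subunits in either region. In the DVC it called 5.52% of all genes for ZT3 against ZT5, 7.59% for ZT9 against ZT5 and 2.07% for ZT9 against ZT3, and in the CeA 1.41%, 4.93% and 0.704%. At an unadjusted p of at most 0.05, 3 of the 48 contrasts passed. In the DVC they were 0 of 8 subunits for ZT3 against ZT5, where 13.8% of all genes passed, 1 for ZT9 against ZT5 (22.1%) and 1 for ZT9 against ZT3 (11%). In the CeA they were 0 of 8 for ZT3 against ZT5 (10.6%), 1 for ZT9 against ZT5 (15.5%) and 0 for ZT9 against ZT3 (8.45%).

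In the DVC the intervals of the alpha subunits between times were narrow. The 95% interval for ZT9 minus ZT5 ran from −0.27 to 0.23 cycles for Gabra3 and for Gabra5 from −0.33 to 0.08. Gabrb1 differed between ZT9 and ZT5 by 0.12, with an interval from −0.14 to 0.38. Gabrg1 had medians of 20.16 at ZT3, 20.01 at ZT5 and 20.27 at ZT9, with ranges of 19.37 to 20.44, 18.54 to 20.93 and 19.81 to 21.35. The groups overlapped, and the lowest value at ZT9 lay more than 1 cycle above the lowest at ZT5. Gabrg1 was 0.54 ± 0.19 cycles lower at ZT9 than at ZT5 (unadjusted p = 0.00675, limma adjusted p = 0.0653). Among lower-numbered animals the difference was −0.73 and among higher-numbered ones −0.54.

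For Gabrg3, Gabrd and Gabrr2 the intervals in the DVC were wider. Gabrg3 at ZT3 differed from ZT5 by 0.68, with an interval from −0.16 to 1.51. Within the higher-numbered animals, which hold all ZT3 samples, it differed by 0.15, and over all animals without ZT5 replicate 3 by 0.42. The mean C_T of Gabrg3 was 21.71 in lower- and 20.21 in higher-numbered animals at ZT5, and 20.78 and 19.54 at ZT9. Gabrd at ZT9 differed from ZT5 by 0.66, from −0.24 to 1.56. Higher-numbered animals alone gave 1.34 and lower-numbered ones 0.30, and over all animals the difference was 0.27 without ZT9 replicate 12. Replicate 12, at 20.44, is among the 4 higher-numbered ZT9 values, whose median was 25.15 and SD 2.85, so the 1.34 leans on it. The mean C_T of Gabrd at ZT9 was 25.12 ± 1.80 over 13 samples and 25.51 ± 1.18 without replicate 12. Gabrr2 was measured in 5 of 7 samples at ZT3, 8 of 17 at ZT5 and 8 of 15 at ZT9, and 3 of the 5 values at ZT3 sat at the ceiling. Its mean C_T was 26.52 ± 0.83 at ZT3 and 24.50 ± 2.17 at ZT9, a difference of 2.03 cycles (unadjusted p = 0.0177, limma adjusted p = 0.320). All ZT3 values came from higher-numbered animals, whose 3 ZT9 values were 19.76 in replicate 12, 25.48 and 27.12. The 5 ZT9 values of lower-numbered animals had a mean of 24.72 ± 0.77. Without replicate 12 the mean of all ZT9 values was 25.17 ± 1.10 and the difference 1.35. In that sample Gabrr2 and Gabrd lay 5.41 and 5.07 cycles above the mean level of the other ZT9 samples of the DVC, further than any other gene, followed by Slc6a12, Crhbp and Cckbr. Its level of Gabrg3 lay 1.11 cycles and that of Gabra5 0.37 cycles above that mean, Gabrg1 differed from it by −0.88, and Gabra3, Gabrb1 and Gabrq lay within 0.25 cycles of it. Of these 6 values Gabra5 alone lay outside the range of the other ZT9 samples.

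In the CeA the intervals between times were widest for Gabrq and Gabrr2, which had failed reactions. Gabrb1 was 0.32 ± 0.15 cycles higher at ZT9 than at ZT5 (unadjusted p = 0.0420, limma adjusted p = 0.283), by 0.06 in higher-numbered and by 0.58 in lower-numbered animals alone. Its highest C_T at ZT5, 18.44 in replicate 1, and its lowest at ZT9, 16.65 in replicate 10, came from lower-numbered animals. These are the samples with 78 and 74 failed reactions, so the 0.58 leans on them. Over all animals without ZT9 replicate 10 the difference was 0.26. Gabra3 had medians of 20.79 at ZT3, 20.77 at ZT5 and 20.99 at ZT9, with ranges of 20.46 to 21.13, 20.07 to 21.19 and 20.15 to 22.82. The groups overlapped, and the SD was 0.24 at ZT3, 0.37 at ZT5 and 0.75 at ZT9. Gabra3 at ZT9 differed from ZT5 by −0.35 with an interval from −0.76 to 0.07. The difference was −0.69 in higher-numbered animals (limma unadjusted p = 0.0128, adjusted p = 0.118) and −0.12 in lower-numbered ones, and over all animals −0.19 without CeA ZT9 replicate 15. That replicate, at 22.82, is among the 5 higher-numbered ZT9 values, whose mean was 21.42 and median 21.23. Gabra5 at ZT9 differed from ZT5 by 0.09 with an interval from −0.23 to 0.40. Gabrd, the subunit that most favoured the CeA, had mean C_T values of 21.66 ± 0.44, 21.72 ± 0.44 and 21.83 ± 0.78 in the order of time, and its interval for ZT9 minus ZT5 ran from −0.57 to 0.35. That difference was −0.51 in higher-numbered and 0.13 in lower-numbered animals. Gabrg1 had an interval from −0.31 to 0.43, with −0.21 and 0.36 in the same groups. Of the 6 subunits measured in all 33 CeA samples, Gabrg3 had the largest SD, 0.78 cycles. Gabrg3 at ZT3 differed from ZT5 by 0.66, with an interval from −0.03 to 1.35, and by 0.21 within the higher-numbered animals. Its mean C_T was 21.88 in lower- and 20.63 in higher-numbered animals at ZT5, and 21.34 and 20.27 at ZT9. For Gabrq the interval for ZT9 minus ZT5 ran from −1.26 to 0.56 and for Gabrr2 from −0.98 to 0.73, over 8 and 7 measured samples at ZT9.

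**Figure D4:**
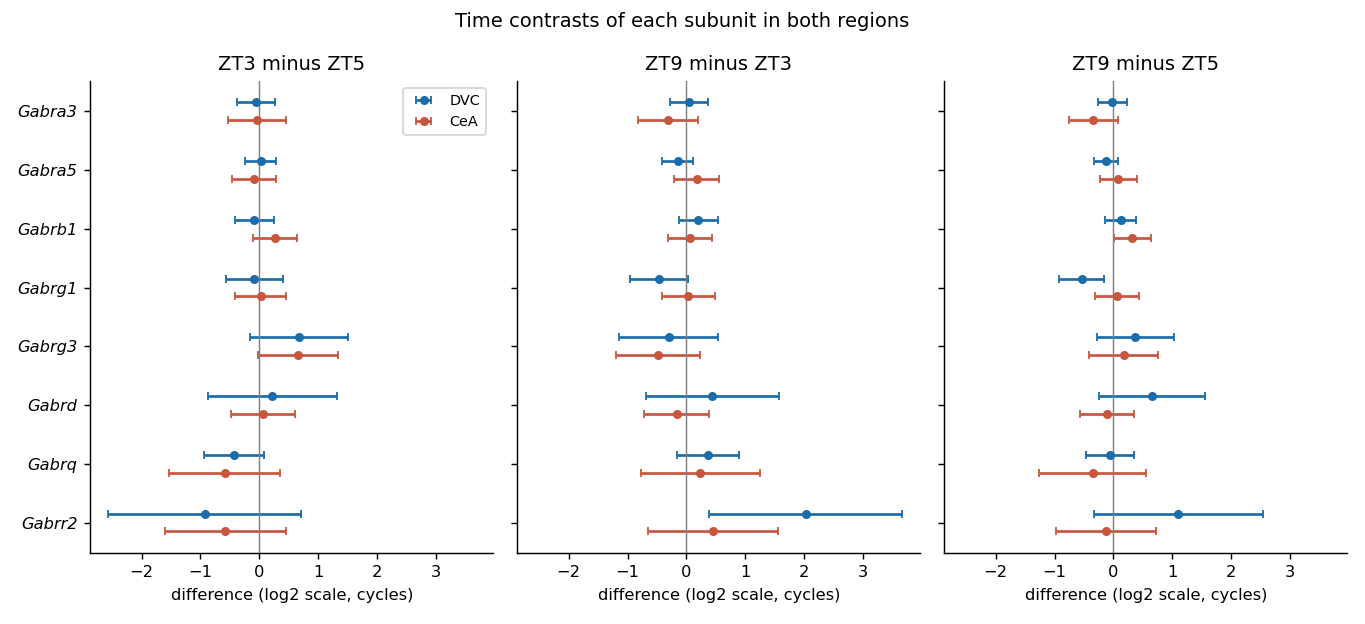
Differences between time points for each subunit in the DVC and the CeA, in cycles (log2 scale), with 95% intervals; a positive value is a higher level at the time named first. The intervals that leave out 0 are those of Gabrg1 in the DVC and Gabrb1 in the CeA for ZT9 minus ZT5, and of Gabrr2 in the DVC for ZT9 minus ZT3.

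By the fold threshold of 0.25 cycles in the mean difference from ZT5, 3 of 8 subunits in the DVC lay beyond it at ZT3 and 4 of 8 at ZT9, where 43.4% and 40% of all genes did. In the CeA 4 of 8 did so at ZT3 and 3 of 8 at ZT9, against 41% and 37.5%. The differences from ZT5 had opposite signs in the regions for 3 of 8 subunits at ZT3 and 4 of 8 at ZT9, where 33.3% and 48.6% of all genes did. Over time 0 of the ratios described passed the threshold in either region. The Gabra3 to Gabra5 ratio in the CeA was −3.21 ± 0.24 at ZT3, −3.53 ± 0.29 at ZT5 and −3.84 ± 0.66 at ZT9. In the DVC it was −3.28 ± 0.18, −3.44 ± 0.35 and −3.06 ± 0.36. Both had an adjusted permutation p of 0.0504 over 8 tests. In the 8 tests of higher-numbered animals alone, the adjusted permutation p of this ratio was 0.0295 in the CeA and 0.0182 in the DVC. With normalized values of all animals it was 0.330 in the CeA and 0.531 in the DVC. The Gabrg1 to Gabrg3 ratio in the DVC was 0.03 ± 0.45, 0.93 ± 1.56 and 0.03 ± 1.12 in the order of time (adjusted permutation p = 0.185). In higher-numbered animals alone it was 0.03, 0.20 and −0.96 (adjusted permutation p = 0.0200). In the CeA its adjusted permutation p was 0.236 in all and 0.485 in higher-numbered animals.

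Levels of the subunits were also compared across the samples of a region after subtracting the mean of each time point. Of the 56 pairs described, 0 passed the threshold with p-values adjusted over 72. At an unadjusted p of at most 0.05, 7 of 28 pairs in the DVC and 3 of 28 in the CeA passed. The share over all pairs of panel genes was not computed, so these counts cannot be set against the panel. The pair with the lowest p was Gabrd with Gabrr2 in the DVC. Pearson's r was 0.74 over 20 samples (permutation test, p = 0.0027, adjusted p = 0.0804) and Spearman's rho 0.51 (permutation test, p = 0.0222, adjusted p = 0.267). Without the 2 samples farthest from the median of Gabrd r was 0.48. In the 14 higher-numbered animals r was 0.87 (permutation test, adjusted p = 0.0197). These include ZT9 replicate 12, in which both Gabrd and Gabrr2 stood far apart from the other ZT9 samples, so this r leans on 1 sample. The lower-numbered animals held fewer than the 10 samples with both values that were required.

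The panel genes most like each regional subunit, by the largest Pearson's r over at least 20 samples of a region after subtracting time means, are given as a description. For Gabra3 it was Snx10 in the DVC (r = 0.76, n = 39) and Grik3 in the CeA (r = 0.54, n = 33). For Gabrq it was Gad1 in the DVC (r = 0.73, n = 37) and Egr1 in the CeA (r = 0.66, n = 25). For Gabrd it was Gabrr2 in the DVC (r = 0.74, n = 20), the pair given above, and Ngef in the CeA (r = 0.69, n = 32). For Gabrb1 it was PKCe in the DVC (r = 0.72, n = 39) and Homer2 in the CeA (r = 0.61, n = 33), and for Gabrg1 Ndufa5 (r = 0.59, n = 39) and Mgll (r = 0.57, n = 33).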

How the data were processed

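The authors deposited C_T values from the instrument software, on a log2 scale of cycles with failed reactions missing, and the same values on the log2 scale after their quantile normalization. A repeat of the normalization over all 72 samples differed by at most 4.99e-09 cycles. The authors' means per time point were also deposited and not used, since 4 of the 5 CeA columns repeat DVC values. Columns were matched to samples by animal number and region. RNA was extracted with 1 of 2 kits, and which sample had which kit is not given in the sources used here.

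Limma 3.58.1 in R 4.3.3 was fitted over all genes with at least 2 values in each group, with Benjamini-Hochberg adjustment over all genes tested at 0.05. Region was fitted with time as a covariate, time in each region, and both with their interaction. Permutation tests drew 100000 times. The fits were run on simulated data with independent normal noise. The simulation held no animal pairing, ceiling or quantile normalization, so those features were not tested by it. Python 3.11.15, numpy 2.4.6, scipy 1.17.1, pandas 2.3.3 and matplotlib 3.10.9 were used. Alternatives were other scalings, subsets of samples, genes or animals, failed reactions set to the highest C_T, unmoderated tests, the animal group as a covariate, an animal block and leave-one-out. Lower-numbered animals alone, and median centring and leave-one-out of the time contrasts, were added after seeing the data.

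Named genes are 8 of the 9 subunits, 3 GABA synthesis and transport genes, 5 marker genes of which 2 are among those 3, and the gene most like each subunit called between regions. The remaining subunit and 1 gene of the transport list are not reported here; they stayed in the normalization, the fits and the adjustment of p-values. Members and lists were chosen with earlier results of these data known. The samples of a group are separate animals. The number of animals and failed reactions limit the precision, and no counting error can be given.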

Additional observations from a re-analysis of the deposited data

Results flagged for a closer look

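Of 20 subunit groups with 4 to 10 measured values, 3 held a value farther from its neighbour than a 95% limit for a single outlier allows, a rate that chance gives in about 1 of 20 groups. Gabra5 in the CeA at ZT3 had a highest normalized C_T of 18.01 over 7 samples, and the next was 17.14. Gabrq in the DVC at ZT3 had a highest C_T of 23.99 over 7 samples, and the next was 22.31. Gabrr2 in the DVC at ZT9 had a lowest C_T of 19.76 over 8 measured samples, and the next was 23.66. The last is replicate 12, whose Gabrd value also stood apart.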

How the results depend on the processing

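In all 12 alternatives that could test them, Gabra3, Gabrq and Gabrd kept their direction and stayed past the threshold between regions; Gabrq and Gabrd were not among the genes with a value in every sample. Gabrb1 reversed to 0.82 with quantile normalization per region and 0.85 without normalization, Gabrg1 to 0.74 and 0.80, Gabrr2 to 0.041 with quantile normalization per region, and Gabra5 to −0.029 in lower-numbered animals. With quantile normalization per region and without normalization the median of all genes was 1.18 and 1.13 higher in the DVC. Relative to that median Gabrb1 lay at −0.36 and −0.28, and Gabrg1 at −0.43 and −0.32. The replicate block by animal, with a consensus correlation of 0.06 between an animal's regions, called 6 of 8 subunits as a random block, adding Gabrg3 (adjusted p = 0.0476), and 5 in animals with both regions, where Gabrg1 lost its call (−0.22, adjusted p = 0.0771) and Gabrg3 gained one (0.43, adjusted p = 0.0270). The block changed no count by over 1.5 times. Median centring called 6, C_T as measured 7, lower-numbered animals alone 3, genes with a value in every sample 3, and leave-one-out from 4 to 6. At ZT3 quantile normalization per region called 7 subunits. At ZT5 that and C_T as measured each called 7. Leave-one-out called 0 subunits over time in either region and 0 for the interaction. The ratios past the threshold numbered 0 by region in lower-numbered animals and 3 by time in higher-numbered animals. Correlated pairs past the threshold numbered 11 with median centring, 39 with C_T as measured, 1 in higher-numbered and 0 in lower-numbered animals, again with no share over the panel. Of 48 time contrasts, 22 changed sign without normalization, 10 with median centring and 9 in higher-numbered animals. The cause was not tested. Failed reactions limit Gabrr2 most, then Gabrq in the CeA and Gabrd in the DVC.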
